A study of Mus musculus with 4 samples.

Results

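The genes described here are 10 regulators of cell survival and apoptosis: Traf1, Birc2, Birc3, Xiap, Cflar, Mcl1, Bcl2, Bcl2l1, Bcl2l11 and Bax. They were taken by name, as the probes whose gene symbol in the deposited table, or whose transcript in the scanner files, belongs to one of them. All 10 were found, on 31 probes, out of 25107 named genes and 56605 probes. Macrophages were grown from femur bone marrow of male C57BL/6J mice with macrophage colony-stimulating factor, from wild-type (WT) animals and from animals lacking Batf2 (Batf2-/-), a transcription factor of the AP-1 family. The cells were left untreated (labelled 0 h) or stimulated for 8 h with R848 (resiquimod) at 100 ng/ml. R848 is a synthetic agonist of TLR7, a receptor for single-stranded RNA inside the cell. Labelled RNA (Cy3) was hybridised. Because the untreated samples are labelled 0 h, R848 and 8 h more in culture cannot be told apart in any response below. The 4 groups (WT untreated, WT with R848, knockout untreated, knockout with R848) had 1 array each, so no difference below has a replicate check and none carries a p-value. The age of the mice and their number behind each array were not given in the sources used here.

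Apoptosis can start at the cell surface or at the mitochondrion. Death receptors of the TNF receptor family recruit caspase-8 through adaptor proteins. TRAF1 and the cIAP ubiquitin ligases act at receptor complexes of this family to favour survival signalling through NF-kB. At death receptors c-FLIP blocks the activation of caspase-8. At the mitochondrion, pro-survival proteins such as MCL1, BCL2 and BCL-XL hold back the pore-forming proteins BAX and BAK, and BH3-only proteins such as BIM release that hold. Macrophages that sense microbial products are known to induce survival genes through NF-kB.

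On the arrays, 30 of the 31 probes were well above background on all 4 arrays, and each probe had 1 spot. The 75th percentile of the signal, which was set equal between arrays, ranged from 252 to 278, and 60.6% to 71.4% of all probes were well above background. Feature Extraction, the scanner software, gives an error for each spot, and for the members it was 10.0% to 28.2% of that signal. For the brightest probe of a gene this came to 0.20 to 0.21 for a log2 difference between 2 arrays, printed below as ±. It covers measurement on the array but not variation between cultures. The median error was 10.03% of the signal, close to the lowest, so this ± is nearly the same for every gene. It is not a spread measured between spots. A gene was called higher or lower at 2-fold or more. The 8 macrophage markers listed (Csf1r and Adgre1 among them) were well above background on every array. Batf2 itself, read by 1 probe, had signals of 34.1 in WT untreated, 94.8 in WT with R848, 26.7 in knockout untreated and 10.8 in knockout with R848, the last not well above background. Where that probe lies relative to the deleted part was not given in the sources used here.

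The first comparison set WT macrophages after 8 h of R848 against untreated WT macrophages labelled 0 h. Traf1, Cflar and Birc3 rose, and the other 7 members stayed within 2-fold at their brightest probe. The count was thus 3 of 10 higher and 0 of 10 lower, where 6.19% of all 18763 genes tested rose by that much and 7.01% fell. The median log2 difference was 0.67 over the members and -0.03 over all genes. In knockout macrophages the same 3 genes rose and 0 of 10 fell, with 6.84% of 19840 genes higher and 6.57% lower, and the medians were 0.62 and -0.06. The members were chosen with earlier results of these data known, so setting them beside all genes describes them and tests nothing. The responses of the genotypes share no array. By probe, 12 of 31 were at least 2-fold higher in WT and 13 of 31 in the knockout, against 6.15% and 6.45% of all probes. In either genotype 0 were at least 2-fold lower, against 7.47% and 6.95%. Of the higher probes, Birc3 and Cflar gave 4 each and Traf1 gave 1 in each genotype. The probe count thus largely repeats the count of genes. Markers of other cell types moved with R848 too, given here as summed signals in multiples of the array's 75th percentile. The 6 granulocyte precursor markers went from 108 to 27.7 in WT, with 6 of 6 at least 2-fold lower, and from 8.95 to 3.49 in the knockout, with 3 of 6 at least 2-fold lower. The 8 mast cell and basophil markers went from 22.7 to 13.4 in WT, with 4 lower and 1 higher. In the knockout they stood at 2.34 and 2.58, with 3 of 7 measured at least 2-fold lower and 1 higher. The higher one was Hdc in both genotypes. The part of these cells in the members' responses was not tested, and in such bulk RNA fewer cells of a type and less RNA per cell cannot be told apart.

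**Figure D1:**
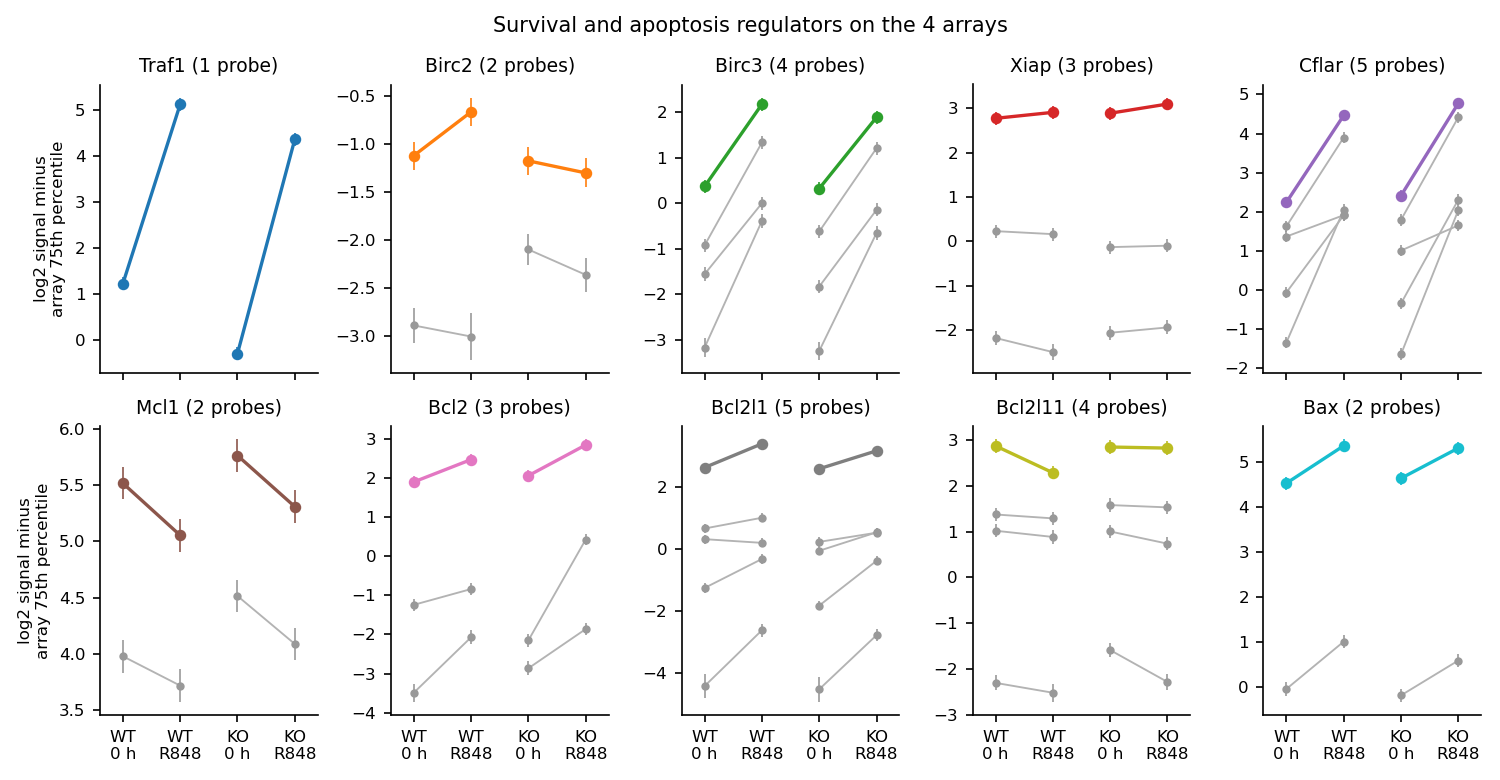
Level of each member on the 4 arrays, as log2 signal minus the array's 75th percentile; colour marks the brightest probe of the gene, grey the other probes, bars are Feature Extraction's error, and lines join untreated to R848 within a genotype. Traf1, Birc3 and Cflar climb by 3.89, 1.80 and 2.22 in WT at their brightest probes, while Mcl1 and Xiap stay within 0.5 of their untreated level.

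Traf1 encodes an adaptor that joins TRAF2 and the cIAP proteins to receptors of the TNF receptor family. Its 1 probe (A_51_P343833, for a gene on chromosome 2) read 650.1 in WT untreated, 9217 in WT with R848, 214 in knockout untreated and 5177 in knockout with R848. Both R848 arrays were far above both untreated arrays. The rise was 14.9-fold in WT (log2 3.89 ± 0.20) and 25.1-fold in the knockout (log2 4.65 ± 0.20). These placed Traf1 at rank 48 from the top among 18763 genes in WT and at rank 43 among 19840 in the knockout, the highest rank of the 10 members in each.

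Birc2 and Birc3 are neighbouring genes on chromosome 9 that encode cIAP1 and cIAP2, ubiquitin ligases of the TNF receptor complex. The brightest Birc3 probe read 359 in WT untreated, 1194 in WT with R848, 328 in knockout untreated and 932 in knockout with R848. That was a rise of 3.49-fold in WT and 2.96-fold in the knockout. All 4 Birc3 probes rose in both genotypes, by 1.56 to 2.78 on the log2 scale in WT and by 1.56 to 2.59 in the knockout. Its neighbour Birc2 was not called. The brighter Birc2 probe read 128 and 167 in WT, without and with R848, and 116 and 102 in the knockout, which are log2 differences of 0.46 ± 0.21 and -0.13 ± 0.21. The dimmer probe, with signals of 33.1 to 61.2, stood at -0.12 and -0.26. Birc3 thus rose in both genotypes, and its neighbour was within 2-fold in both.

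Xiap, on the X chromosome, encodes an inhibitor that binds caspases directly. Its brightest probe read 1901 and 1991 in WT, without and with R848, and 1941 and 2155 in the knockout. The span over all 4 arrays was 0.32 on the log2 scale, the smallest among the members at their brightest probe. Its 3 probes responded by -0.32 to 0.13 in WT and by 0.03 to 0.21 in the knockout, all within 2-fold.

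Cflar encodes c-FLIP, which resembles caspase-8 and blocks its activation at death receptors. Its brightest probe, for transcript variant 1 of this gene on chromosome 1, read 1314 in WT untreated, 5859 in WT with R848, 1397 in knockout untreated and 6911 in knockout with R848. The rise was 4.67-fold in WT and 5.14-fold in the knockout. Of the 5 Cflar probes 4 rose at least 2-fold in each genotype. The largest rise was at the probe for transcript variant 2, which read 109 and 1098 in WT and 83.8 and 1039 in the knockout, or 10.5-fold and 12.9-fold. The probe A_52_P214612, which is assigned to an Ensembl transcript, stood apart at 0.55 and 0.64 on the log2 scale. Its signals were 717 and 999 in WT and 527 and 793 in the knockout, without and with R848. The position of each probe within its transcript was not given in the sources used here.

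**Figure D2:**
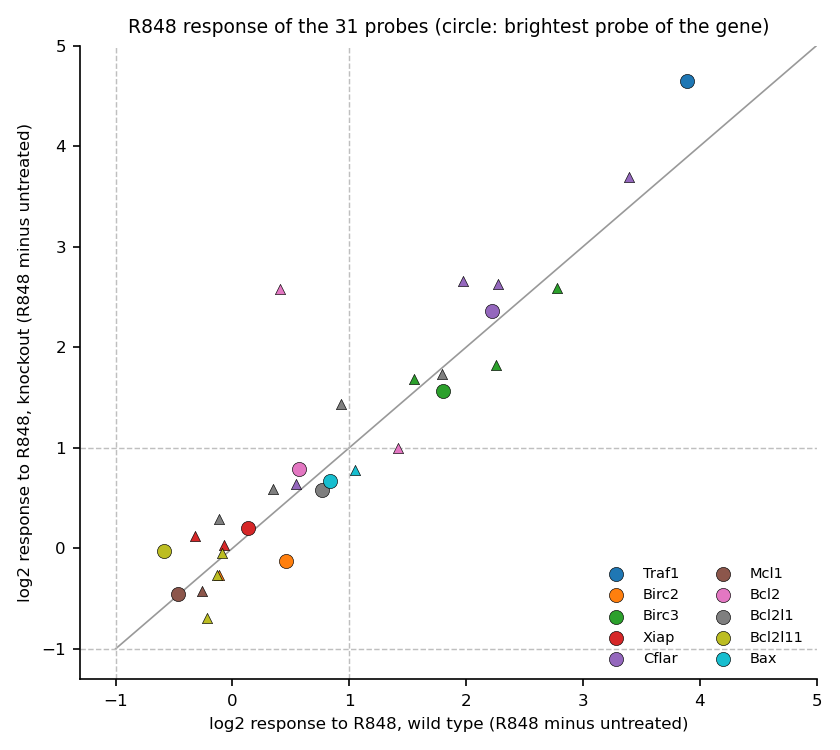
Log2 response to R848 in WT (horizontal) and in the knockout (vertical) for the 31 probes, with circles for the brightest probe of each gene, triangles for the others, dashed lines at 2-fold and a solid line of equal response. Traf1, Cflar and Birc3 lie past 2-fold in both genotypes, and 1 Bcl2 probe at 0.40 in WT and 2.58 in the knockout lies far from the line.

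The bases before the start sites are shown for Traf1, Birc3 and Cflar, which moved together, and for Birc2, the neighbour of Birc3 that did not. RefSeq promoters on GRCm38.p6 were found for all 10 members, 16 start sites in all, and were matched by symbol. Each line gives the 250 bases before the start, 5′ to 3′ on the gene's strand, with motif matches in capitals.
Traf1, chr2:34961773-34962022, minus strand: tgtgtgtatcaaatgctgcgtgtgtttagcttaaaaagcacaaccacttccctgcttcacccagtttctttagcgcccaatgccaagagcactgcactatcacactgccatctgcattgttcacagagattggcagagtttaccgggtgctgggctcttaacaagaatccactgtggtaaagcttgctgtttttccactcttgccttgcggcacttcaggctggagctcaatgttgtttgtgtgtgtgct
Birc3, chr9:7873171-7873420, minus strand: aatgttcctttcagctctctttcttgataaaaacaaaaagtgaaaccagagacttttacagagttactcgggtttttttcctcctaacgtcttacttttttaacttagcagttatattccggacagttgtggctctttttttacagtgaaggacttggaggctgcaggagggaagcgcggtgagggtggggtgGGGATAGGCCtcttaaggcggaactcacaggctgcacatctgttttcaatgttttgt
Cflar, chr1:58711241-58711490, plus strand: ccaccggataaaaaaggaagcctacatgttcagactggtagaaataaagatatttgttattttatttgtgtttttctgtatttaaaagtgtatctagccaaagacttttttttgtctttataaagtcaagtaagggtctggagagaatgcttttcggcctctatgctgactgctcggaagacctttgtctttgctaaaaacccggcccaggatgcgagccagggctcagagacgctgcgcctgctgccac
Birc2, chr9:7837058-7837307, minus strand: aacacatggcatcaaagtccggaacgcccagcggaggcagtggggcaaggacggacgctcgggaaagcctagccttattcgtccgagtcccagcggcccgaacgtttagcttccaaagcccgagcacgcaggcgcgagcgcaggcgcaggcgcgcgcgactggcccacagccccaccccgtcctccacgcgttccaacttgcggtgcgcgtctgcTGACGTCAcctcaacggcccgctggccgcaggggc
The motifs searched on both strands were the NF-kB consensus, a looser form of it (GGG and CC with any 5 bases between, which includes every match of the consensus), the AP-1 site TGANTCA, the cAMP response element TGACGTCA and the interferon response core (GAAA and GAAA with any 2 bases between). In these 250 bases Traf1 and Cflar had no match, Birc3 had 1 match of the looser NF-kB form at -57 to -48, and Birc2 had, at the first of its start sites listed, the cAMP response element at -35 to -28. Among the 16 member promoters, 1 held the NF-kB consensus (a start site of Bcl2l1), 8 the looser form, 1 the cAMP response element and 0 the AP-1 site or the interferon core. Among all 32851 promoters the shares were 3.9%, 45.8%, 1.55%, 6.75% and 2.98% in the order NF-kB consensus, looser form, cAMP element, AP-1 and interferon core. A match describes letters in this window, and a missing match says only that they are not there.

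Bcl2l1, Bcl2 and Mcl1, the pro-survival BCL2 genes among the 10, were not called with R848 at their brightest probes. Bcl2l1, on chromosome 2, encodes BCL-XL, and its brightest probe read 1703 and 2758 in WT and 1562 and 2242 in the knockout, without and with R848. The log2 differences were 0.76 ± 0.20 and 0.58 ± 0.20. Its 5 probes were uneven. The probe for transcript variant 4 was not well above background in either untreated array and was at least 3.47-fold higher with R848 in WT and at least 3.33-fold higher in the knockout. One of the variant 3 probes rose 2.71-fold in the knockout and stood at 0.93 in WT. The dimmer variant 1 probe stood at -0.12 in WT and 0.30 in the knockout, and its spot lies in a local area of raised signal on the array of WT with R848.

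Bcl2, on chromosome 1, encodes the founding member of the family. Its brightest probe, for transcript variant 2, read 1034 and 1467 in WT and 1090.5 and 1808 in the knockout, or 0.57 ± 0.20 and 0.79 ± 0.20 on the log2 scale. The probe for transcript variant 1 (A_52_P534870) read 117 and 148 in WT but 59.0 and 339 in the knockout, a rise of 5.97-fold in the knockout beside 0.40 in WT. The third probe, with signals of 24.7 to 69.3, rose 2.67-fold in WT and was just past 2-fold in the knockout. The mean over the 3 probes in the knockout was 1.45, past 2-fold, so the call for Bcl2 there depends on how its probes are combined.

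Mcl1, on chromosome 3, encodes a short-lived pro-survival protein on which many myeloid cells depend. Its brighter probe read 12731 in WT untreated, 8817 in WT with R848, 14240 in knockout untreated and 10002 in knockout with R848. The log2 differences with R848 were -0.46 ± 0.20 in WT and -0.45 ± 0.20 in the knockout, and the other probe stood at -0.26 and -0.43. Each probe was dimmer on the R848 array in both genotypes, but by less than 2-fold.

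The remaining members promote death. Bcl2l11, on chromosome 2, encodes the BH3-only protein BIM, and its brightest probe read 2035 and 1294 in WT and 1887 and 1786 in the knockout. The log2 differences were -0.59 ± 0.20 in WT and -0.02 ± 0.20 in the knockout. The other 3 probes did not share that gap: they stood at -0.08 to -0.22 in WT and at -0.05 to -0.70 in the knockout. Bax, on chromosome 7, encodes a pore-forming protein of the outer mitochondrial membrane. Its brighter probe read 6434 and 10936 in WT and 6548 and 10038 in the knockout, or 0.83 ± 0.20 and 0.67 ± 0.20. The dimmer Bax probe, at 270 and 535 in WT, was 2.08-fold higher with R848 there and stood at 0.77 in the knockout, so both Bax probes were brighter with R848 in both genotypes. Median centring moved the median of all genes with R848 to 0.13 in WT and 0.09 in the knockout, and with it Birc2 and Bcl2l11 stood above 0 in the knockout (0.02 and 0.12). Apart from these, Xiap in WT stood below 0 (-0.08) when the mean over probes was taken.

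The comparison of knockout with WT cells asked whether the members differed without Batf2. In untreated cells 0 of 10 were at least 2-fold higher, where 2.8% of 20301 genes were, and 1 of 10 was at least 2-fold lower, where 3.18% were. That gene was Traf1, whose signal of 214 in the knockout against 650.1 in WT was 2.86-fold lower (log2 -1.52 ± 0.20), at rank 270 from the bottom of all genes. The other members lay between -0.05 and 0.25 at their brightest probe. Their dimmer probes ranged from -0.91 (Bcl2) to 0.79 (Birc2). At the brightest probe the median size of the difference was 0.11 over the members and 0.25 over all genes. By probe these medians were 0.23 and 0.26, and at the brightest probe with R848 they were 0.30 and 0.21. The untreated values of Birc2, Xiap, Cflar, Bcl2, Bcl2l11 and Bax changed sign under at least 1 of 8 alternatives. Traf1 stayed past 2-fold in all 8, but not all of them could move it. Its 1 probe was well above background on every array and lay in no local area of raised signal. The filters, the mean over probes and leaving out such areas therefore returned the same value. Median centring, quantile normalization and normexp gave -1.55, -1.56 and -1.28. The authors' table, which differs by a constant for each array, gave -1.48. By probe, 0 of 30 were at least 2-fold higher and 1 of 30, that of Traf1, at least 2-fold lower, against 3.03% and 3.53% of all probes.

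Markers of some other cell types also differed between the untreated genotypes. The 8 mast cell and basophil markers had a summed signal of 22.7 in WT untreated and 2.34 in knockout untreated. All 8 were well above background in WT and 7 in the knockout, where Cpa3 was not. In the knockout 7 of 8 were at least 2-fold lower and 0 higher, and Fcer1a stood at -0.13. The 6 granulocyte precursor markers summed to 108 and 8.95 and were well above background on both, with 6 of 6 at least 2-fold lower in the knockout. The part of these cells in the Traf1 difference was not tested. Mature neutrophil markers summed to 135 and 89.9, B cell markers to 7.15 and 5.99, and T cell markers to 3.90 and 4.43. Erythroid and megakaryocyte markers summed to 47.3 and 31.8, and NK cell markers to 0.47 and 0.37. Dendritic cell markers summed to 1.13 and 1.18, and fibroblast and stroma markers to 14.7 and 14.9. The B cell, NK cell, and erythroid and megakaryocyte lists each had 1 marker at least 2-fold lower in the knockout and 0 higher. These were Cd79b (2.13-fold), Klrd1 (at least 4.58-fold) and Ppbp (2.84-fold). The mature neutrophil, T cell, dendritic cell, and fibroblast and stroma lists had 0 in either direction. The T cell gene Cd3g was not well above background on any array, and Ly6g and Trac had no probe under those names.

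With R848, 0 of 10 members were at least 2-fold higher and 0 of 10 at least 2-fold lower in the knockout, where 2.34% and 2.45% of 18768 genes were. Traf1 stood at -0.76 ± 0.20, with signals of 5177 in the knockout and 9217 in WT. On the same arrays granulocyte precursor markers summed to 3.49 in the knockout and 27.7 in WT, with 6 of 6 at least 2-fold lower, and mast cell and basophil markers to 2.58 and 13.4, with 6 of 8 at least 2-fold lower, and their part was not tested. Birc2 stood at -0.63 ± 0.21 at its brighter probe but at 0.64 at its dimmer one, so its probes disagreed and their mean was 0.00. Bcl2l11 stood at 0.54 ± 0.20 at its brightest probe, Cflar at 0.31 ± 0.20 and Birc3 at -0.29 ± 0.20. All 4 Birc3 probes were dimmer in the knockout, by 0.13 to 0.29.

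**Figure D3:**
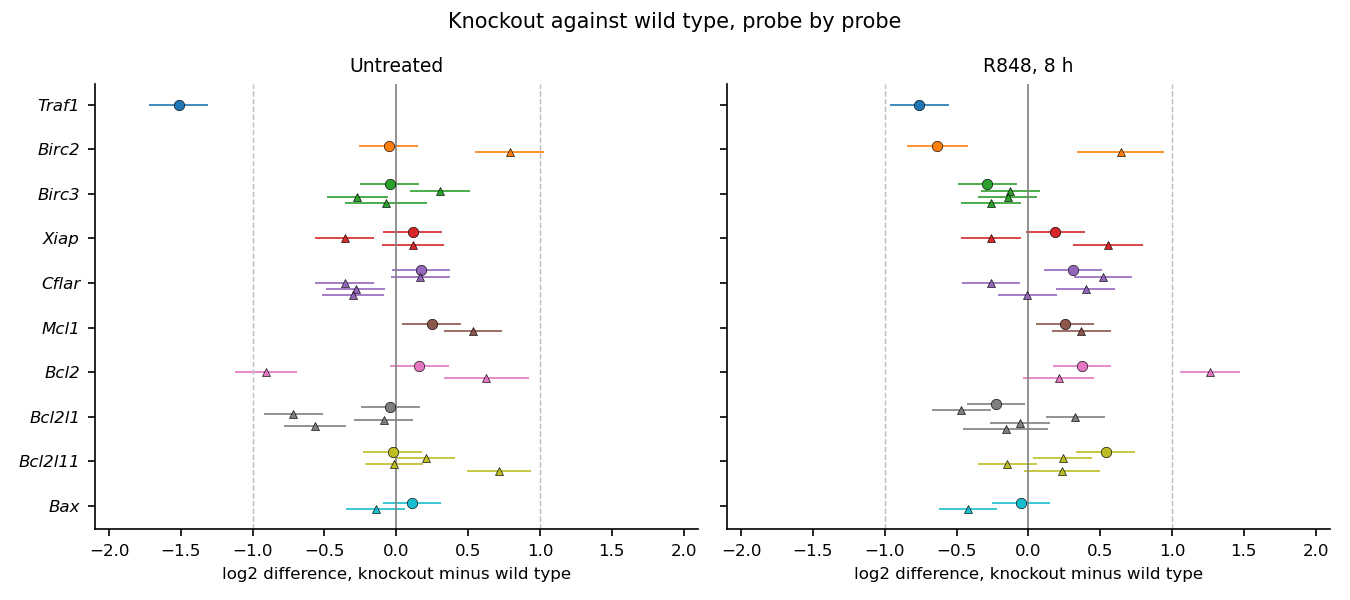
Log2 difference, knockout minus WT, for each probe of each member in untreated cells (left) and after 8 h of R848 (right), with circles for the brightest probe, triangles for the others, bars for Feature Extraction's error and dashed lines at 2-fold. Traf1 at -1.52 in untreated cells and the Bcl2 variant 1 probe at 1.27 with R848 are the points past 2-fold.

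By probe, the Bcl2 variant 1 probe was 2.40-fold higher in the knockout with R848 (log2 1.27 ± 0.21), 1 of 31 against 2.54% of all probes, and 0 of 31 were at least 2-fold lower, against 2.73%. In untreated cells the same probe stood at -0.91 ± 0.22. Its response in the knockout exceeded that in WT by 2.17 ± 0.30, while the variant 2 probe gave 0.21 ± 0.29 and the third probe -0.42 ± 0.38. The excess was thus seen at 1 probe of 3, and over all members 1 of 31 probes was higher and 0 of 31 lower by at least 2-fold, against 3.79% and 3.43% of all probes. The spots around this probe were shifted by at most 0.09 on the log2 scale on any array.

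Over the brightest probes, the knockout's response minus that of WT was at least 2-fold higher for 0 of 10 members and at least 2-fold lower for 0 of 10, where 3.16% and 2.71% of 19080 genes were. This difference uses all 4 arrays and so shares them with every comparison above. Traf1 stood at 0.76 ± 0.29, Bcl2l11 at 0.56 ± 0.29 and Birc2 at -0.58 ± 0.30. The Bcl2l11 value was 0.00 with the mean over its probes. The other 7 members lay between -0.24 and 0.21.

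Other genes of the same pathways were described from 8 lists of 47 genes, of which 42 were measured in the R848 responses. These lists, too, were chosen with earlier results of these data known. In WT 5 rose and 2 fell, where 6.19% and 7.01% of all genes did, and in the knockout 9 rose and 5 fell, where 6.84% and 6.57% did. Under median centring 9 rose in each genotype, and in WT 4 fell with the mean over probes or quantile normalization, so the gap between the genotypes' counts depends on these choices. The medians over these genes were 0.17 and 0.10 on the log2 scale. At the death receptors, Fas, whose product is the receptor for FAS ligand, rose 6.37-fold in WT and 9.43-fold in the knockout. Fadd, the adaptor that brings caspase-8 to such receptors, rose 2.35-fold in the knockout and stood at 0.40 in WT. The other 7 genes of that list stayed within 2-fold in both, among them Ripk1 at -0.58 and -0.46. Of the 5 other TRAF adaptors, Traf2 rose 3.11-fold and 3.80-fold, and Traf5 rose 3.53-fold in the knockout beside 0.95 in WT. Traf3 stood at 0.88 and 0.69.

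Caspases and the apoptosome were mixed. Casp6 fell by 1.77 on the log2 scale in WT and by 1.37 in the knockout. Casp2 fell by 1.23 in WT and stood at -0.68 in the knockout, and Apaf1, the scaffold of the apoptosome, stood at -0.77 in WT and fell by 1.33 in the knockout. Cycs, which encodes cytochrome c, rose 2.03-fold and 2.38-fold. Mlkl, the executor of necroptosis, rose 4.70-fold in the knockout and stood at 0.99 in WT, just under 2-fold. Casp8, the initiator at death receptors, stood at -0.25 and -0.13, and Casp9 at -0.90 and -0.97, just under 2-fold. Ripk3, the kinase that acts on MLKL, stood at -0.28 and -0.36.

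Within the BCL2 family outside the members, Bcl2a1d, which encodes the pro-survival protein A1, rose 5.48-fold in WT and 2.76-fold in the knockout. The Bcl2a1 genes are near-identical copies, so the signal of this probe may come from more than 1 of them. Bid, a BH3-only protein that caspase-8 cleaves, rose 3.22-fold in the knockout and stood at 0.34 in WT, while Bbc3, which encodes PUMA, fell by 1.27 in the knockout and stood at -0.72 in WT. Bak1, the partner of Bax, stood at 0.46 and 0.40, and Bcl2l2, which encodes pro-survival BCL-W, at 0.47 and 0.22. Among the other IAP genes and their antagonists, Xaf1, an antagonist of XIAP, rose 4.02-fold and 9.67-fold. Birc5, which encodes survivin, stood at -0.90 in WT and fell by 1.27 in the knockout, and Naip6 fell by 1.01 in the knockout beside -0.81 in WT, while Birc6 stood at 0.15 and 0.11. The NAIP genes are also close copies of each other, so their signals may be shared.

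**Figure D4:**
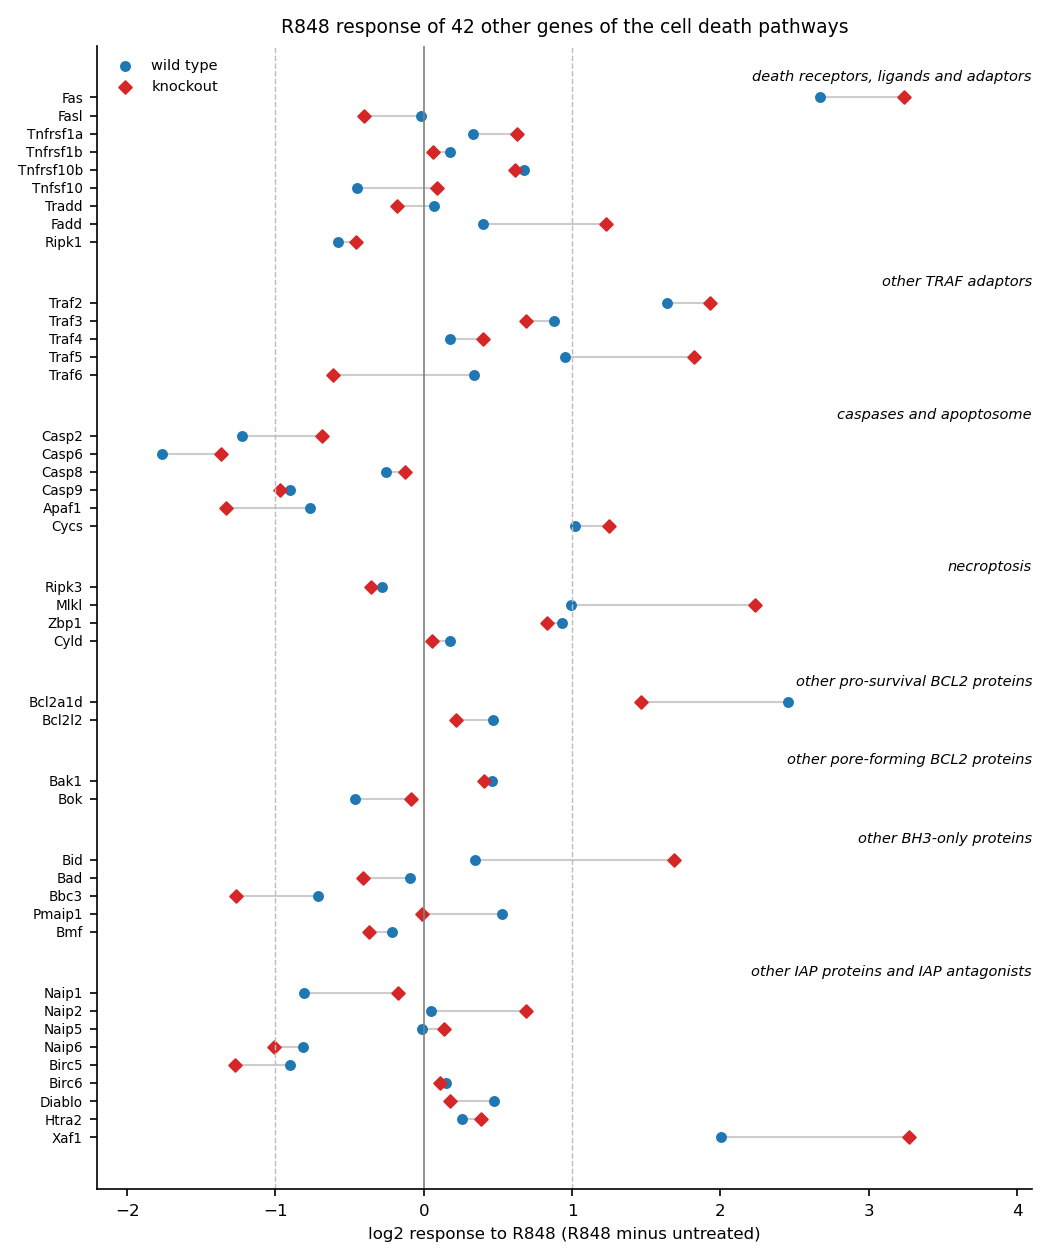
Log2 response to R848 of the 42 measured genes of the other cell death lists, with blue circles for WT, red diamonds for the knockout and dashed lines at 2-fold. Fas and Xaf1 lie farthest to the right in the knockout, at 3.24 and 3.27, and Casp6 farthest to the left in WT, at -1.77.

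In untreated cells 1 of 43 was at least 2-fold higher in the knockout (Bcl2a1d, 2.02-fold) and 1 was at least 2-fold lower (Xaf1, 2.15-fold), where 2.8% and 3.18% of all genes were. With R848, Traf5 was 2.15-fold higher and Pmaip1, which encodes the BH3-only protein NOXA, was 2.11-fold lower, out of 42, where 2.34% and 2.45% of all genes were higher and lower. These counts are near the shares over all genes. The calls of Xaf1 untreated and Pmaip1 were lost under normexp, that of Xaf1 also with the mean over probes, and that of Bcl2a1d under median centring. The knockout's response exceeded that of WT by at least 2-fold for Bid (1.34), Xaf1 (1.27) and Mlkl (1.24), and 0 of 42 went the other way by that much, where 3.16% and 2.71% of all genes did. Under normexp these 3 calls were lost, and the count was 0 higher and 1 lower. Each of these 3 genes had a lower signal in the knockout than in WT before treatment (-0.63, -1.10 and -0.64) and a higher one with R848 (0.71, 0.16 and 0.60).

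The genes whose pattern over the 4 arrays was closest to the 3 members with the widest range were found by the root mean square distance between log2 values centred on each gene's mean, over 3999 genes that spanned at least 2-fold. For Traf1 (range 5.41) these were Aoah at 0.30, Slc2a6 at 0.32 and Il1f9 at 0.32. Aoah read 849 and 8796 in WT and 360 and 7737 in the knockout, without and with R848. Like Traf1 it was lower in the untreated knockout than in untreated WT, which the choice by these same values favours. For Cflar (range 2.54) they were Tpm4 at 0.07, Gm7809 at 0.07 and Eid3 at 0.09, and for Birc3 (range 1.85) Prkcb at 0.03, Pik3ap1 at 0.04 and Cyria at 0.05. With 4 arrays such likeness describes these arrays only.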

How the data were processed

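Total RNA from 4 cultures was read on 4 Agilent 1-colour arrays. Agilent Feature Extraction 11.5.1.1 made the spot signals, per the submitters' processing notes. What the scanner files call the processed signal is, per the file headers, an intensity on a linear scale, after subtraction of background and a spatial trend, with no scaling between arrays. The authors' deposited table holds intensity values that equal the processed signal multiplied by a constant for each array, within 1% at 100.0% of spots, and log2 ratios between arrays, from which no value is printed here. The origin of the constants was not given in the sources used here.

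Control spots and outlier spots were left out, no spot was saturated, and values are log2 signals minus the 75th percentile of their array. A probe counted as well above background where at least 0.5 of its spots were marked so. Where the dimmer array was not, it was set to the lowest value well above background on that array, or kept its own if higher, and such a fold is printed with "at least". A gene was read at its brightest probe well above background on at least 1 array, and called at 2-fold. Probes were named through the gene table of GRCm38.p6, which named 40458 of 56605. Over 289 to 292 probes with 10 spots, the median SD of a log2 difference between spots was 0.05 to 0.06 for comparisons of 2 arrays, and 0.07 for the difference between responses. Python 3.11.15, R 4.3.3 and limma 3.58.1 (normexp) were used, and the steps were run on simulated data. Those data were built from the array of untreated WT cells, with the same noise at every signal and changes planted only in brighter genes. They cannot speak for changes in dim genes or for variation between cultures. With 1 array per group no test was made; this number of arrays sets the limit on precision. The scanner files hold median and not mean spot signals, so the normexp alternative used the median signal. The 8 alternatives changed the scaling (median centring, quantile), the background correction (normexp), the source (the authors' table), the filter on dim probes (stricter, none), the summary over probes, and left out bright areas. Some genes of the pathway lists are not reported here and are in no count of those lists. The members and lists were chosen with earlier results of these data known. All members are named; other pathway genes are named where at least 2-fold different in a comparison, with 1 or 2 others of a list, and the 3 genes closest in pattern to each of the 3 members of widest range.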

Additional observations from a re-analysis of the deposited data

Results flagged for a closer look

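Birc2 was singled out because its R848 response had opposite signs in the genotypes, each beyond the spread between spots of 1 probe. The log2 response at its brighter probe was 0.46 in WT and -0.13 in the knockout. Each genotype had 1 array per condition, so the difference was not tested. Feature Extraction's error of each response was 0.21, larger than the knockout value. The dimmer Birc2 probe stood at -0.12 and -0.26, and under median centring the knockout value was 0.02.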

How the results depend on the processing

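Each of the 50 member differences (10 genes in 5 comparisons) was recomputed under 8 alternatives. None changed sign after a call, and 49 kept their side of 2-fold in all 8. The exception was Bcl2 in the knockout response, at 0.79 with its brightest probe and 1.45 with the mean over probes. The sign was kept in all 8 alternatives for 37 of the 50, and the other 13 were under 2-fold throughout. Not all 8 could move these values. The brightest probe of each member was well above background on every array and in no bright area. The filter settings and leaving out bright areas therefore returned the main value by construction. The authors' table, which differs by a constant for each array, could only shift all members of a comparison alike. It holds 39374 spots of the 59305 that are not controls, so its counts over all genes rest on fewer genes. In the WT response these were 18056 in place of 18763. Traf1 ranged from 3.67 to 4.05 in the WT response and from -1.56 to -1.28 between untreated genotypes. The bright areas were defined after seeing the data, as windows of spots raised by over 0.3 on the log2 scale. No paired analysis was possible because each group has 1 array.

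Of 240 counts recomputed, 207 stayed within 1.5 times the main count. The counts of members among them could not change under the filter or bright-area settings. Among the other pathway genes, higher in the WT response were 9 in place of 5 under median centring, and lower 4 in place of 2 with the mean over probes as well as under quantile normalization. In the knockout response 3 were lower in place of 5 under normexp. In untreated cells the 1 higher became 0 under median centring and 2 in the authors' table, and the 1 lower became 0 under normexp and with the mean over probes, and 2 with no filter. With R848 the 1 lower became 0 under normexp and the 1 higher became 2 with no filter. The difference of responses had 0 higher and 1 lower under normexp in place of 3 and 0.

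Over all genes, normexp with an offset of 50 gave 702 higher and 575 lower in place of 1162 and 1316 (WT response), 813 and 546 in place of 1357 and 1304 (knockout response), 111 and 219 in place of 569 and 646 (untreated), 104 and 148 in place of 440 and 459 (R848), and 143 and 100 in place of 602 and 517 (difference of responses). That offset shrinks differences between dim signals by construction. Probes well above background on every array compared gave 323 higher untreated and 259 higher with R848. No filter gave 2261 lower in WT, 2279 lower in the knockout, 1479 and 1180 untreated, 1377 and 839 with R848, and for the knockout response minus the WT response 1728 and 1761. The share of called genes that were higher was 46.9% in the WT response, 51.0% in the knockout response, 46.8% untreated and 48.9% with R848. It was 61.0% and 63.1% for the responses under median centring, 33.6% untreated under normexp, and 60.2% with R848 in the authors' table and 62.1% with no filter. The cause was not tested beyond these constructions. Dim probes limit the depth: under a signal of 100 the SD between spots was 0.15 to 0.24.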
